A study of Rattus norvegicus with 12 samples.

Results

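Integrins, cadherins and claudins are the membrane proteins with which a cell holds its matrix and its neighbours. They were chosen by symbol (Itga, Itgb, Cdh or Cldn followed by a number), and such a symbol stood on 69 of the 28727 named rows that were counted. The 39 with at least 10 counts in at least 3 of the 12 libraries are described here. These comprised 9 of 12 integrin α subunits, 8 of 8 integrin β subunits, 13 of 23 cadherins and 9 of 26 claudins. Of the other 30, 9 had no count in any library and none exceeded 23 counts in a library. Among the 30 were Itga8 and Itga10, whose highest counts in a library were 23 and 20, and the endothelial cadherin Cdh5, with at most 11. The symbol pattern leaves out genes of these families with other names, such as α subunits with a letter in place of a number. Of these, Itgav, the αv subunit, is given as a comparison.

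The cells were INS-1 832/13, a clone of a rat β-cell tumour line whose insulin release answers to glucose. They were transduced with an adenovirus that expressed GFP or with one that expressed ChREBPβ, and were kept in 2 or 11 mM glucose for 48 h. Each of the 4 combinations of virus and glucose had 3 libraries. The study's general methods describe the ChREBPβ virus as carrying a mouse sequence tagged with mCherry. All 12 libraries came from transduced cells of 1 clonal line. ChREBPβ is the short, constitutively active isoform of the carbohydrate response element-binding protein, a glucose-responsive transcription factor encoded by Mlxipl.

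Integrins are pairs of an α and a β subunit that bind collagen, laminin, fibronectin or counter-receptors outside the cell and talin and vinculin inside it. Classical cadherins bind the same or similar cadherins on the next cell and are tied to actin by catenins, and claudins form the strands of tight junctions that seal or open the path between cells. In pancreatic β-cells, E-cadherin and N-cadherin hold islet cells together, and β1 integrins hold the cells to laminin and collagen of the vascular basement membrane.

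Total counts ranged from 25754488 to 60531215 per library. The mean total was 1.43 times that of GFP at 2 mM in GFP at 11 mM, 1.62 times in ChREBPβ at 2 mM and 1.99 times in ChREBPβ at 11 mM, and the ChREBPβ 2 mM a library held 28595982 counts against 57313995 and 57726412 in its group. Values are given as CPM, counts brought to a common library size after scaling by the trimmed mean of M-values (TMM). The rat Mlxipl row lay at 199 to 212 CPM with ChREBPβ and 240 to 277 with GFP at 2 mM. It was no higher with the virus. Whether reads of the mouse sequence in the virus were counted in this row was not tested, so it does not check the labels. Pklr, a known ChREBP target, encodes liver-type pyruvate kinase. At 2 mM it was at 406 to 426 CPM in the libraries labelled ChREBPβ and at 126 to 133 in those labelled GFP. At 11 mM the ranges were 442 to 449 and 193 to 222 CPM. The 10 β-cell markers, mostly Ins1, summed to 15107 to 16955 CPM with GFP at 2 mM and 11493 to 12526 at 11 mM. With ChREBPβ the sum was 6305 to 6441 CPM at 2 mM and 5362 to 5741 at 11 mM. Of the 9 tested, 8 were lower with ChREBPβ at each glucose level, beside 23.2% and 19.1% of all genes. The other, Slc2a2, was higher at both, with means of 438 CPM in GFP cells and 618 with ChREBPβ at 2 mM. The α- and δ-cell markers, which were almost entirely Gcg, summed to 1590 to 1720 CPM in GFP cells and 429 to 502 with ChREBPβ. Of markers of other cells, Ptprc (leukocytes), Dcn and Lum (fibroblasts) and Prss1 (acinar cells) were at 0 in every library, and the endothelial Cdh5 and Tek stayed under 1 CPM. The 6 leukocyte markers, which include the member Itgb2, summed to 0.723 to 1.98 CPM with GFP and 1.07 to 2.29 with ChREBPβ, and the 7 fibroblast markers to 11.1 to 14.1 and 8.18 to 11.4 CPM. The 5 endothelial markers summed to 44.0 to 50.8 CPM in GFP cells and 53.4 to 61.9 with ChREBPβ, mostly Esam, and the 6 exocrine and duct markers to 104 to 140 and 151 to 171 CPM, mostly Krt7. Single markers on these lists moved within the sums. At 2 mM Sox9, on the exocrine and duct list, averaged 0.838 CPM with GFP and 8.19 with ChREBPβ. Of the fibroblast markers, Pdgfra averaged 7.90 and 3.73 CPM, Postn 4.89 and 4.93, and Pdgfrb 0.00972 and 0.656. The part of these marker levels in the results below was not tested. In bulk RNA, fewer cells of a type and less RNA per cell cannot be told apart.

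The start-site regions of a strongly raised and of 2 strongly lowered members are shown first. They come from RefSeq on the GRCr8 assembly, which is not the Rnor_6.0 assembly of the counts, and run from 250 bases before to 50 bases after the gene start. The Cldn15 region is chr12:25343576-25343875 on the minus strand, that of Cdh23 chr20:29165283-29165582 on the minus strand and that of Itga1 chr2:48545234-48545533 on the minus strand. Each sequence reads 5′ to 3′ along its gene, and the capitals mark every CANNTG, the core that binds basic helix-loop-helix factors, the class to which ChREBP belongs.
Cldn15: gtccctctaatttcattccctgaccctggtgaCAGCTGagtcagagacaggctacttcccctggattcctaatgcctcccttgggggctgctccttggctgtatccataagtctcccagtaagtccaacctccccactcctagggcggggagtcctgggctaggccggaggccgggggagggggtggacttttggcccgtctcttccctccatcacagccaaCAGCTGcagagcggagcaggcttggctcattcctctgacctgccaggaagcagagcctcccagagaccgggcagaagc
Cdh23: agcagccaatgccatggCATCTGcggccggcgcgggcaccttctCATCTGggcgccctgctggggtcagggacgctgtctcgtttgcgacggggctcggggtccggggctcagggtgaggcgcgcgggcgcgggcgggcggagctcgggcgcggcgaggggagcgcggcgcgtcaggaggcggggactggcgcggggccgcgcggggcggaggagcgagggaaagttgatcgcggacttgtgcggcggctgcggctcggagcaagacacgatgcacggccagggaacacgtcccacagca
Itga1: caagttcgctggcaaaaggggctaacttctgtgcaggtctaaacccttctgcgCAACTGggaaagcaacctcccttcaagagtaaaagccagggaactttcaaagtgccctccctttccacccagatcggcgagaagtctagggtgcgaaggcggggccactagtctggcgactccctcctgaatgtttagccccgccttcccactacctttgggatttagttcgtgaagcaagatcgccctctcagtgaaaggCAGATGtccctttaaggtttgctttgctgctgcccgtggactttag
The letters CANNTG, which read the same on both strands and include CACGTG, were found in 19 of the 26 member promoters in the table (73.1%) and in 72.1% of all 33469 promoters of the same length. CACGTG itself was found in 0 of 26 and in 6.42% of all. GGGCGG on either strand, the letters bound by Sp-family factors, was found in 15 of 26 (57.7%) and in 33.1% of all. A match describes these letters only and is not a binding site.

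A member was called when edgeR's quasi-likelihood test gave an adjusted p under 0.05 (Benjamini-Hochberg over all 14669 genes tested), and the change was at least 1.2-fold. Of the 39 members 38 were tested, and Itgb6 fell below the filter on low counts. With ChREBPβ against GFP at 2 mM glucose, 4 members were higher and 14 lower. Of all genes tested in this comparison 44.1% were called, 21.0% higher and 23.2% lower, against 47.4%, 10.5% and 36.8% of the members. At 11 mM, 4 were higher and 13 lower (44.7% called, 10.5% higher, 34.2% lower), beside 33.4%, 14.3% and 19.1% of all genes. The share called was thus near the background at 2 mM, with a larger share of the calls on the lower side. The median log2 fold change of the tested members was -0.42 at 2 mM and -0.31 at 11 mM, with -0.02 for all genes at each. Scaling by library totals in place of TMM factors moved the median of all genes by -0.10 at 2 mM and -0.08 at 11 mM and changed no member count, while the higher share of all calls went from 47.5% to 33.2% and from 42.9% to 29.3%. The 3 members Cldn15, Cdh3 and Itga9 rose at both glucose levels, 12 fell at both (Itga1, Itga2, Itga2b, Itga4, Itga5, Itga6, Cdh8, Cdh11, Cdh23, Cdh24, Cldn1 and Cldn9), and none was called in opposite directions. Itga9 met the count rule through its ChREBPβ libraries alone, so its rise was fixed by the choice of members, and without it 3 higher members remain at each level. Cdh20, among the 14 lower members at 2 mM, met the rule only with its GFP libraries, so its fall was favoured by that choice. The comparisons at 2 and 11 mM used separate libraries, but shared the fit.

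**Figure D1:**
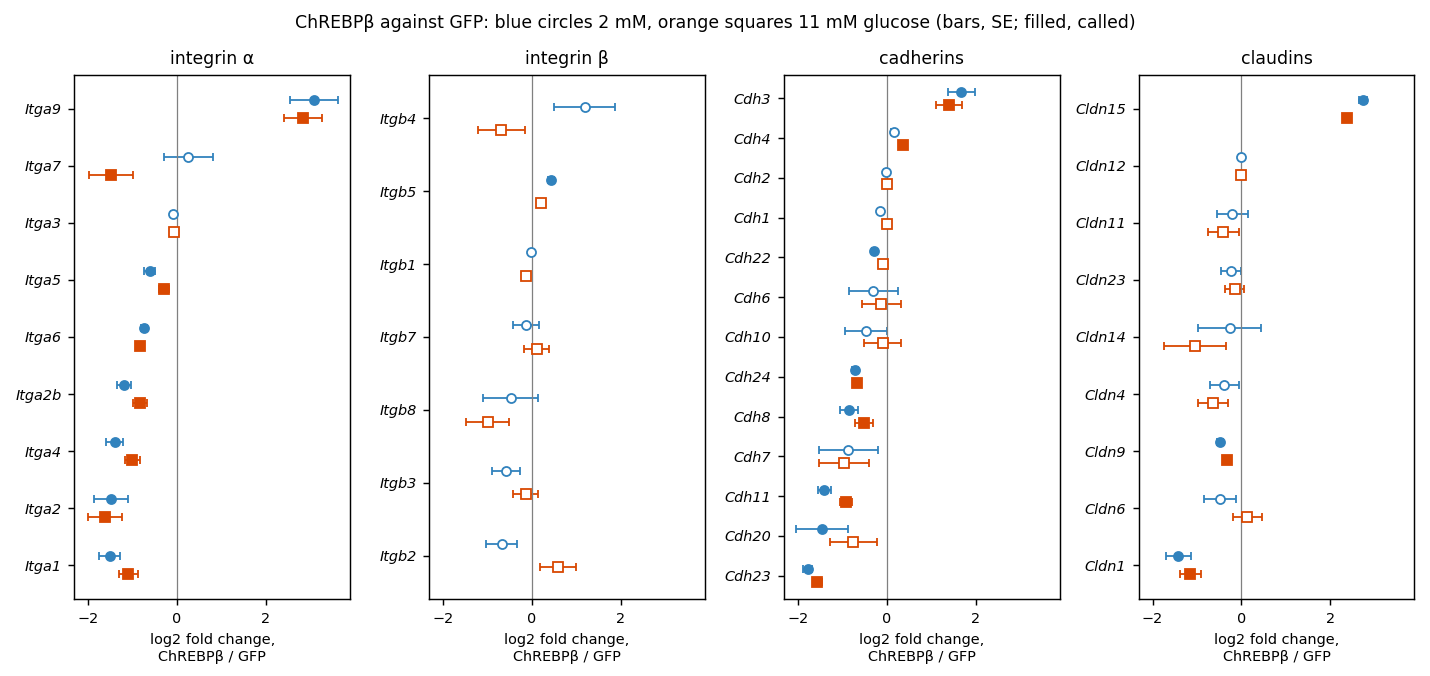
Log2 fold change of ChREBPβ over GFP (horizontal axis) for the 38 tested members in 4 panels by family, at 2 mM (blue circles) and 11 mM glucose (orange squares), with standard errors as bars and filled symbols for called members. Itga9, whose rise was fixed by the choice of members, and Cldn15 lie farthest to the right, at 3.08 and 2.73 at 2 mM. The integrin α panel holds 6 called members left of 0 at 2 mM and 7 at 11 mM.

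Integrin α subunits set the ligand that an integrin binds. Of the 9 tested, 1 was higher and 6 were lower with ChREBPβ at 2 mM, and 1 was higher and 7 were lower at 11 mM. The share lower was 66.7% and 77.8%, beside 23.2% and 19.1% of all genes. Their median log2 fold change was -0.75 and -0.83. Itga3, the laminin-binding α3 subunit, was the 1 member called at neither level, with 182 ± 7.23 CPM in GFP and 171 ± 2.88 in ChREBPβ cells at 2 mM (SD, n = 3).

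Itga1 encodes α1, which with β1 forms a collagen receptor. It was at 3.93, 3.09 and 4.14 CPM in GFP cells at 2 mM and at 2.65, 4.42 and 3.26 at 11 mM. With ChREBPβ it was at 1.04, 1.57 and 1.18 CPM at 2 mM and at 2.06, 1.44 and 1.28 at 11 mM. Every ChREBPβ library lay below every GFP library. Itga1 fell by 1.52 ± 0.23 (SE) on the log2 scale at 2 mM (edgeR adjusted p = 1.16e-05), then by 1.10 ± 0.21 at 11 mM (adjusted p = 0.00025, edgeR). Itga2, the α2 subunit of a further collagen receptor, was scarce, with 3 to 36 counts per library. It averaged 0.713 ± 0.0903 CPM in GFP cells and 0.232 ± 0.112 with ChREBPβ at 2 mM, with 0.583 ± 0.182 and 0.187 ± 0.0409 as the 11 mM means (SD, n = 3), without overlap at either level. Its log2 fold change was -1.49 and -1.62 (edgeR adjusted p = 0.00252 and 0.00155).

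Itga4 encodes α4, which binds fibronectin and the vascular adhesion molecule VCAM-1. The GFP libraries held 3.20, 2.97 and 3.40 CPM at 2 mM, followed by 3.27, 2.25 and 2.62 at 11 mM. The ChREBPβ libraries held 1.29, 1.21 and 1.13 CPM at 2 mM, followed by 1.35, 1.51 and 1.21 at 11 mM. The lowest GFP library was thus above the highest ChREBPβ library, and the gene fell by 1.41 ± 0.18 and 1.01 ± 0.17 (edgeR adjusted p = 1.93e-06 and 7.18e-05). Itga9 encodes α9, the closest relative of α4, and was the 1 α subunit that rose. It had 1, 3 and 2 counts in the GFP libraries at 2 mM and 1, 4 and 7 at 11 mM, against 14, 39 and 27 with ChREBPβ at 2 mM, and 40, 38 and 37 in its 11 mM libraries. In CPM this was 0.0628 ± 0.0254 against 0.560 ± 0.117 at 2 mM and 0.0924 ± 0.0642 against 0.675 ± 0.00786 at 11 mM (SD, n = 3), again without overlap. The summed counts were 6 against 80 at 2 mM and 12 against 115 at 11 mM, and their ratio after division by the scaled library sizes was 8.84 (95% exact interval 3.89 to 24.8) at 2 mM and 7.30 (4.02 to 14.5) at 11 mM, where the intervals cover counting error only. No GFP library reached 10 counts, so Itga9 met the count rule through its ChREBPβ libraries alone. Its rise was fixed by that choice, and the values here describe it without testing it.

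Itga2b encodes αIIb, best known as the platelet fibrinogen receptor. It was at 4.41, 4.02 and 5.0 CPM in GFP cells at 2 mM, at 3.63, 3.29 and 2.81 with GFP at 11 mM, at 1.61, 1.78 and 2.35 with ChREBPβ at 2 mM and last at 1.86, 1.74 and 1.88 with ChREBPβ at 11 mM. The order was GFP at 2 mM, GFP at 11 mM and then both ChREBPβ groups, which overlapped each other. It fell by 1.2 ± 0.16 at 2 mM and by 0.83 ± 0.16 at 11 mM (edgeR adjusted p = 3.28e-06 and 0.000254). Itga5 encodes α5, the main fibronectin receptor subunit, and averaged 6.07 ± 0.553 CPM in GFP cells and 3.94 ± 0.0999 with ChREBPβ at 2 mM, with 5.16 ± 0.538 and 4.22 ± 0.261 as the 11 mM means (SD, n = 3). It fell by 0.62 ± 0.12 and 0.29 ± 0.11 (edgeR adjusted p = 0.000141 and 0.039). The call at 11 mM was lost without GFP 11 mM b (adjusted p = 0.180), without GFP 11 mM c (0.0610), without ChREBPβ 11 mM a (0.129) and without ChREBPβ 11 mM b (0.0667), and also with DESeq2 (0.0617), relative log expression (RLE) factors (0.0539), no filter (0.0640), counts thinned to the smallest library (0.0707) and only the groups compared (0.0645). Itgav, outside the symbol pattern, encodes αv, the vitronectin receptor subunit. It was at 36.6, 35.1 and 32.5 CPM in GFP cells and 28.4, 28.1 and 27.6 with ChREBPβ at 2 mM. At 11 mM the values were 32.0, 37.9 and 33.8 with GFP and 31.3, 29.1 and 27.9 with ChREBPβ. Its log2 fold change was -0.31 ± 0.07 at 2 mM (edgeR adjusted p = 0.000499), past the threshold, and -0.23 ± 0.06 at 11 mM (adjusted p = 0.00589, edgeR), which is short of 1.2-fold. It passed at 11 mM without GFP 11 mM a (-0.28) and without ChREBPβ 11 mM a (-0.27), as well as with library totals (-0.31).

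Itga6 encodes α6, a laminin receptor subunit used on β-cells. It was at 30.5, 29.7 and 29.0 CPM in GFP cells at 2 mM and at 29.0, 31.7 and 33.3 at 11 mM. ChREBPβ cells had 16.7, 18.6 and 17.4 CPM at 2 mM, followed by 18.4, 16.6 and 17.7 at 11 mM. The groups were set apart by virus and overlapped by glucose. Itga6 fell by 0.75 ± 0.07 and 0.83 ± 0.06 (edgeR adjusted p = 7.16e-09 and 1.2e-09). Itga7, a further laminin receptor subunit, had 2 to 27 counts per library. At 2 mM it averaged 0.229 ± 0.135 CPM in GFP cells and 0.268 ± 0.126 with ChREBPβ, and at 11 mM 0.473 ± 0.229 and 0.163 ± 0.0738 (SD, n = 3). It was called lower at 11 mM, with a log2 fold change of -1.48 ± 0.49 (edgeR adjusted p = 0.0175). That call was lost without GFP 11 mM b (adjusted p = 0.117), without ChREBPβ 11 mM b (0.0517) and without ChREBPβ 11 mM c (0.0781). It was also lost with counts thinned to the smallest library (0.0994), and the interaction with glucose had an adjusted p of 0.18.

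**Figure D2:**
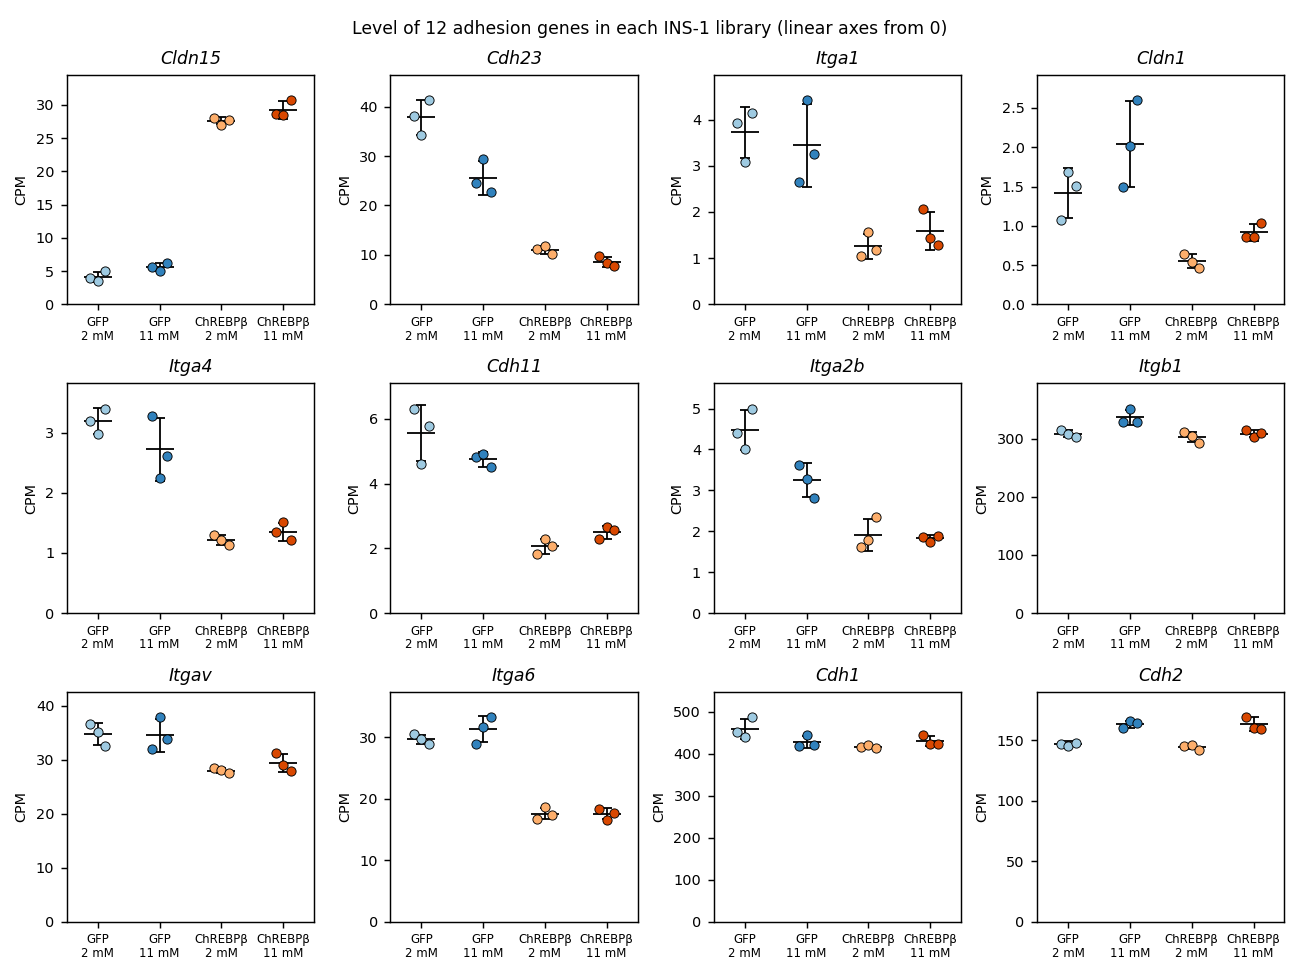
CPM (vertical axes, linear from 0) in each library of the 4 groups for 11 members and Itgav, with 1 point a library and the group mean ± SD as black bars (n = 3). Cldn15 sits at 3.47 to 6.26 CPM in GFP cells and 27.0 to 30.7 with ChREBPβ, whereas Cdh1, Cdh2 and Itgb1 lie at nearly one height across groups.

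Integrin β subunits pair with the α subunits and carry the tail that talin binds. Of the 7 tested, 1 was higher with ChREBPβ at 2 mM and none was called at 11 mM by edgeR or by DESeq2, where 2 (Itgb1 and Itgb5) had an unadjusted p under 0.05 in edgeR. Of all genes 44.1% and 33.4% were called. Itgb1 encodes β1, the partner of most α subunits above. It was at 316, 309 and 303 CPM in GFP cells and at 311, 304 and 293 with ChREBPβ at 2 mM. At 11 mM it was at 329, 352 and 329 CPM in GFP cells and at 316, 303 and 310 with ChREBPβ. The groups overlapped at 2 mM and did not at 11 mM, and the log2 fold change was -0.03 (approximate 95% interval -0.11 to 0.05) and -0.12 (-0.20 to -0.04). The second had an edgeR adjusted p of 0.0159 but was under 1.2-fold.

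Itgb5 encodes β5, which pairs with αv. It averaged 13.6 ± 0.213 CPM in GFP cells and 18.3 ± 0.893 with ChREBPβ at 2 mM, with 16.4 ± 0.835 and 18.9 ± 1.36 as the 11 mM means (SD, n = 3). It rose by 0.43 ± 0.07 on the log2 scale at 2 mM (edgeR adjusted p = 4.53e-05), and its 0.20 ± 0.07 at 11 mM (adjusted p = 0.0203, edgeR) was under 1.2-fold. The remaining tested β subunits, Itgb2, Itgb3, Itgb4, Itgb7 and Itgb8, averaged 0.255 to 1.40 CPM over the 12 libraries, and their intervals were wide. That of Itgb4, the laminin-binding partner of α6, ran from -0.17 to 2.54 at 2 mM. It passed at 2 mM without ChREBPβ 2 mM b (log2 fold change 1.75, edgeR adjusted p = 0.0133), Itgb3 at 2 mM without GFP 2 mM c (-0.80, 0.0466) and Itgb8 at 11 mM without ChREBPβ 2 mM b (-0.99, 0.0336). Itgb6, not tested, averaged 0.160 to 0.226 CPM over the 4 groups.

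Classical type I cadherins are the main adhesion molecules of epithelial and neural cells. Of the 4 members of this type, 1 was higher with ChREBPβ at 2 mM and 2 at 11 mM, and none was lower, where 21.0% and 14.3% of all genes were higher. Cdh1, E-cadherin, was at 451, 440 and 487 CPM in GFP cells and at 415, 421 and 414 with ChREBPβ at 2 mM. In 11 mM glucose it was at 418, 445 and 420 in GFP cells and at 445, 422 and 424 in ChREBPβ cells. The ChREBPβ libraries lay just under the GFP libraries at 2 mM and among them at 11 mM. The log2 fold change was -0.14 (approximate 95% interval -0.22 to -0.06, edgeR adjusted p = 0.00841) and 0.01 (-0.07 to 0.09, adjusted p = 0.869, edgeR), both under 1.2-fold. Cdh2, N-cadherin, was at 147, 145 and 148 CPM in GFP cells and at 145, 146 and 142 with ChREBPβ at 2 mM. The GFP libraries at 11 mM held 160, 166 and 164 and the ChREBPβ libraries 169, 160 and 159. It overlapped between the viruses at each glucose level, with intervals of -0.10 to 0.06 and -0.08 to 0.07.

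Cdh3, P-cadherin, was scarce and rose at both levels. It had 10, 20 and 11 counts with GFP and 33, 73 and 95 with ChREBPβ at 2 mM. At 11 mM the values were 25, 10 and 23 with GFP and 64, 76 and 61 with ChREBPβ. In CPM the means were 0.434 ± 0.129 against 1.39 ± 0.272 and 0.436 ± 0.149 against 1.18 ± 0.133 (SD, n = 3), and no ChREBPβ library overlapped a GFP library. The log2 fold change was 1.68 ± 0.31 and 1.41 ± 0.29 (edgeR adjusted p = 9.76e-05 and 0.000407). Cdh4, R-cadherin, averaged 38.2 ± 1.60 CPM in GFP cells and 42.6 ± 1.29 with ChREBPβ at 2 mM, with 30.3 ± 1.10 and 39.4 ± 1.52 as the 11 mM means. It was called higher at 11 mM (0.38 ± 0.05, edgeR adjusted p = 5.12e-06), and its 0.16 ± 0.05 at 2 mM (adjusted p = 0.0133, edgeR) was under 1.2-fold. The interaction of virus and glucose for Cdh4 had an adjusted p of 0.0802.

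Type II cadherins are the larger classical subfamily, studied mostly in neurons and mesenchyme. Of the 8 members of this type, 5 were lower with ChREBPβ at 2 mM and 3 at 11 mM (62.5% and 37.5%, beside 23.2% and 19.1% of all genes), and none was higher. Cdh20 is among the 5, and its fall was favoured by the choice of members. Cdh11, known from mesenchymal cells and osteoblasts, was at 6.32, 4.61 and 5.77 CPM in GFP cells and 1.83, 2.28 and 2.08 with ChREBPβ at 2 mM. In 11 mM glucose it was at 4.82, 4.93 and 4.51 in GFP cells and at 2.29, 2.67 and 2.56 in ChREBPβ cells. The highest ChREBPβ library was below the lowest GFP library. Cdh11 fell by 1.41 ± 0.15 and 0.92 ± 0.14 (edgeR adjusted p = 8.12e-08 and 1.29e-05). Cdh24 averaged 26.5 ± 1.5 CPM in GFP cells and 16.1 ± 0.716 with ChREBPβ at 2 mM, with 22.9 ± 1.31 and 14.4 ± 0.634 as the 11 mM means, and fell by 0.71 ± 0.07 and 0.67 ± 0.07 (edgeR adjusted p = 2.06e-08 and 5.04e-08). Cdh22 averaged 57.9 ± 1.25 and 47.4 ± 1.67 CPM at 2 mM and fell by 0.29 ± 0.05 (edgeR adjusted p = 2.76e-05), and at 11 mM it averaged 42.4 ± 0.843 and 39.9 ± 1.26 CPM, with a log2 fold change of -0.09 ± 0.05 that did not pass. Cdh8 averaged 2.64 ± 0.233 CPM in GFP cells and 1.44 ± 0.290 with ChREBPβ at 2 mM, with 1.62 ± 0.366 and 1.14 ± 0.0267 as the 11 mM means, and fell by 0.84 ± 0.20 and 0.50 ± 0.20 (edgeR adjusted p = 0.0013 and 0.0486).

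The Cdh8 call at 11 mM was lost whenever a library other than GFP 11 mM a or ChREBPβ 2 mM a was left out. The adjusted p was then 0.0529, 0.0540 and 0.0538 without GFP 2 mM a, b and c, 0.0964 and 0.260 without GFP 11 mM b and c, 0.0597 and 0.0547 without ChREBPβ 2 mM b and c, and 0.0981, 0.0849 and 0.0968 without ChREBPβ 11 mM a, b and c. The log2 fold change went from -0.50 to -0.33 without GFP 11 mM c and to -0.24 with counts thinned to the smallest library (adjusted p = 0.430). The call was also lost with DESeq2 (0.0572), RLE factors (0.0579), no filter (0.0511) and only the groups compared (0.0738). Cdh20 had 2 to 21 counts per library. It reached 10 counts in 5 GFP libraries and in 2 ChREBPβ libraries, so it met the count rule only with its GFP libraries. Its fall was favoured by that choice, and the values here describe it without testing it. Cdh20 was called lower at 2 mM (-1.45 ± 0.58, edgeR adjusted p = 0.0402). That call was lost without GFP 2 mM a (0.0662), GFP 2 mM c (0.152), ChREBPβ 2 mM a (0.102) or ChREBPβ 2 mM b (0.151), and at 11 mM the gene passed without ChREBPβ 11 mM a (log2 fold change -1.58). Cdh6, Cdh7 and Cdh10 averaged 0.160 to 0.399 CPM over all libraries and were not called.

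Cdh23 lies outside the classical types: it is the long cadherin of the tip links that open the transduction channels of hair cells. It was at 38.0, 34.2 and 41.3 CPM in GFP cells at 2 mM and at 24.5, 29.4 and 22.7 at 11 mM. With ChREBPβ it was at 11.2, 11.8 and 10.1 CPM at 2 mM and at 9.74, 8.46 and 7.75 at 11 mM. The 4 groups did not overlap. Cdh23 had the largest fall at 2 mM of the members called in both comparisons, by 1.78 ± 0.10 on the log2 scale (edgeR adjusted p = 8.98e-12), or 3.43-fold, and it fell by 1.56 ± 0.10 at 11 mM (adjusted p = 1e-10, edgeR).

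Claudins differ in whether they seal the junction or let ions and water through. Of the 9 tested, 1 was higher and 2 were lower with ChREBPβ at each glucose level. These 33.3% were below the 44.1% of all genes called at 2 mM and near the 33.4% at 11 mM. Cldn15, which forms a cation-permeable pore and is best known from the intestine, was at 4.01, 3.47 and 4.97 CPM in GFP cells at 2 mM and at 5.66, 5.01 and 6.26 at 11 mM. With ChREBPβ it was at 28.0, 27.0 and 27.7 CPM at 2 mM and at 28.6, 28.4 and 30.7 at 11 mM. The groups did not overlap, and the step between the viruses was many times the spread within a group. Cldn15 rose by 2.73 ± 0.10 on the log2 scale at 2 mM, or 6.66-fold (edgeR adjusted p = 7.64e-15), and by 2.37 ± 0.09, or 5.15-fold, at 11 mM (adjusted p = 2.26e-14, edgeR).

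Cldn1, a sealing claudin of skin and many epithelia, moved the other way. It was at 1.07, 1.69 and 1.51 CPM in GFP cells and at 0.645, 0.535 and 0.466 with ChREBPβ at 2 mM. The GFP libraries at 11 mM held 1.5, 2.01 and 2.60 and the ChREBPβ libraries 0.853, 0.860 and 1.04. Within each glucose level the ChREBPβ libraries lay below the GFP libraries. It fell by 1.42 ± 0.28 and 1.15 ± 0.23 (edgeR adjusted p = 0.000222 and 0.000403). Cldn9, known from the inner ear, averaged 33.7 ± 2.69 CPM in GFP cells and 24.2 ± 2.23 with ChREBPβ at 2 mM, with 28.5 ± 0.518 and 22.7 ± 1.2 as the 11 mM means, and fell by 0.48 ± 0.07 and 0.33 ± 0.07 (edgeR adjusted p = 9.11e-06 and 0.000528). Cldn12 averaged 34.8 ± 0.868 and 34.6 ± 1.34 CPM at 2 mM and 36.1 ± 1.04 and 35.7 ± 1.91 at 11 mM, with intervals of -0.12 to 0.10 and -0.12 to 0.08. Cldn4, Cldn6, Cldn11, Cldn14 and Cldn23 averaged 0.168 to 2.02 CPM and were not called. Cldn14 passed at 11 mM without ChREBPβ 11 mM b (log2 fold change -2.17, adjusted p = 0.0485).

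Of the 17 members called in none of the 4 pairwise comparisons, 5 averaged at least 10 CPM (Cdh1, Cdh2, Cldn12, Itga3 and Itgb1), and their approximate 95% intervals for ChREBPβ against GFP lay within -0.22 and 0.10 on the log2 scale at both glucose levels. The other 12 averaged under 10 CPM and had wider intervals, up to that of Cldn14 at 2 mM, from -1.65 to 1.12. A change of 2-fold was thus not detectable for some of them at this depth.

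The glucose comparison in GFP cells asked which members followed glucose without added ChREBPβ. At 11 against 2 mM, 2 of 38 members were higher and 6 lower (21.1% called), beside 20.2% of all genes (10.2% higher and 10.0% lower), so the share was that of the background. Cldn15 rose by 0.46 ± 0.12 (edgeR adjusted p = 0.00442), from 4.15 ± 0.759 to 5.64 ± 0.627 CPM (SD, n = 3), and Itgb5 by 0.28 ± 0.07 (adjusted p = 0.0058, edgeR). The Itgb5 change was under 1.2-fold without GFP 11 mM a (0.24), with upper quartile factors (0.26) and with library totals (0.25). Itgb2, the β2 subunit of leukocyte integrins, had the largest fall, by 1.87 ± 0.38 (edgeR adjusted p = 0.000786), from 1.25 ± 0.133 to 0.338 ± 0.153 CPM (SD, n = 3). It was read at 38, 39 and 38 counts in the 2 mM libraries and at 23, 11 and 10 in the deeper 11 mM libraries, and the pan-leukocyte Ptprc was at 0 in all of them.

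The other 5 lower calls were cadherins and αIIb. Cdh8 fell by 0.70 ± 0.20, Cdh23 by 0.57 ± 0.09, Itga2b by 0.46 ± 0.16, Cdh22 by 0.45 ± 0.05 and Cdh4 by 0.33 ± 0.05 (edgeR adjusted p = 0.01, 9.34e-05, 0.0263, 5.16e-07 and 7.33e-05). The Cdh8 call was lost without GFP 11 mM a (adjusted p = 0.0611), and that of Itga2b without GFP 2 mM c (0.115) or GFP 11 mM c (0.127). Cldn1 was gained without GFP 11 mM a (0.69, adjusted p = 0.0396), Cldn9 without GFP 2 mM a (-0.28, 0.00738), and Itgb4 without ChREBPβ 2 mM b (0.0376) or c (0.0485). This comparison shares the GFP libraries with the ChREBPβ comparisons. For Cdh23 the log2 fold change was -0.57 for glucose and -1.78 for ChREBPβ at 2 mM, for Cdh8 -0.70 and -0.84, and for Cldn15 0.46 and 2.73. The GFP 2 mM libraries enter both values of each gene with the same sign, so a shared direction is partly built in. For Cdh4 the log2 fold change was -0.33 for glucose, with 0.16 (not called) and 0.38 for ChREBPβ at 2 and 11 mM. The GFP 11 mM libraries enter the first and the last of these with opposite sign.

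In ChREBPβ cells, 11 against 2 mM glucose gave 0 calls among the 38 members with edgeR and 1, Cdh23, with DESeq2, which gave no adjusted p for 15 of the 38, and 6 members had an unadjusted p under 0.05 in edgeR. Of all genes 3.87% were called, 0.988% higher and 2.88% lower. Cdh2 and Cdh22 had an edgeR adjusted p of 0.00837 and 0.00178 but changed by less than 1.2-fold, with log2 fold changes of 0.17 ± 0.04 and -0.25 ± 0.05. Cdh22 passed without ChREBPβ 2 mM a (-0.27) and without ChREBPβ 11 mM c (-0.27). Cdh23 changed by -0.35 ± 0.11 (adjusted p = 0.0519, edgeR) and passed without GFP 2 mM b or c (0.0448 and 0.0451), without GFP 11 mM b or c (0.0179 and 0.0441) and without ChREBPβ 11 mM a (0.0213).

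**Figure D3:**
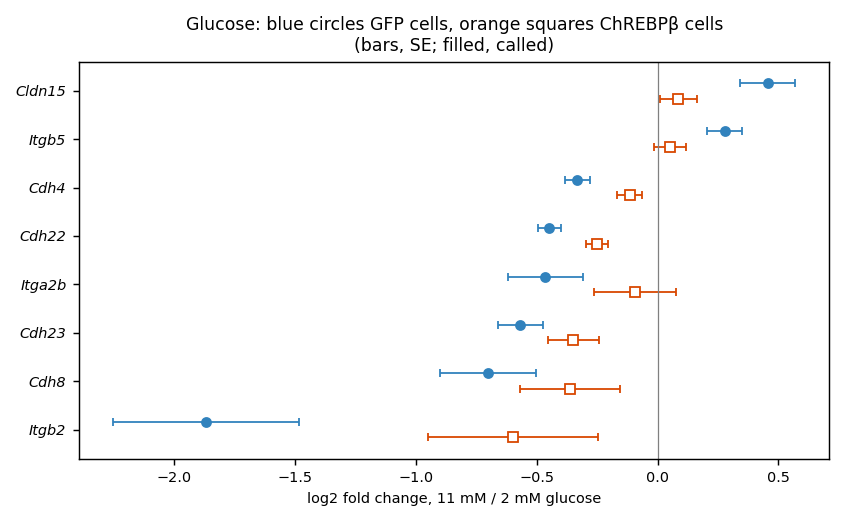
Log2 fold change of 11 over 2 mM glucose (horizontal axis) for the 8 members called in GFP cells, in GFP cells (blue circles) and ChREBPβ cells (orange squares), with standard errors as bars and filled symbols for calls. The values in ChREBPβ cells lie nearer 0 for these 8, from -0.60 for Itgb2 to 0.09 for Cldn15, and since the 8 were chosen for their calls in GFP cells, this is a description.

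Whether the effect of ChREBPβ differed between glucose levels was tested as an interaction. It gave 0 calls among the 38 members with edgeR and 0 with DESeq2, which again gave no adjusted p for 15 of the 38, and 9 had an unadjusted p under 0.05 in edgeR (Cdh1, Cdh4, Cdh11, Cdh22, Cldn15, Itga7, Itgb2, Itgb4 and Itgb5). Of all genes 6.31% were called, 1.56% higher and 4.74% lower, and the higher share of these calls was 24.8%, or 35.3% with upper quartile factors. The members called at 1 glucose level alone (Cdh20, Cdh22 and Itgb5 at 2 mM and Cdh4 and Itga7 at 11 mM) were therefore not shown to differ between levels. Cldn15 had an interaction of -0.37 ± 0.14 (edgeR adjusted p = 0.117) and passed without GFP 2 mM c (-0.53, 0.0217) and without GFP 11 mM b (-0.44, 0.0438).

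Inside the cell, integrins work through a chain of adaptor proteins. Of the 18 tested genes of this adhesion machinery, 8 were higher and 3 lower with ChREBPβ at 2 mM, and 8 were higher and 1 lower at 11 mM. The share called was 61.1% and 50%, beside 44.1% and 33.4% of all genes, and the share higher was 44.4% at each level, beside 21.0% and 14.3% of all genes. Their median log2 change was 0.18 and then 0.14. Tns1, tensin 1, which links integrin tails to actin, was at 1.03, 1.02 and 1.03 CPM in GFP cells and at 6.23, 5.85 and 6.61 with ChREBPβ at 2 mM. At 11 mM the values were 1.81, 1.21 and 0.719 with GFP and 7.76, 8.82 and 7.41 with ChREBPβ. All ChREBPβ libraries were above all GFP libraries, and the gene rose by 2.60 and 2.68 (edgeR adjusted p = 2.47e-09 and 3.02e-10). Vinculin (Vcl) rose by 0.59 and 0.78, talin 2 (Tln2) by 0.70 and 0.44, and β-parvin (Parvb) by 0.67 and 0.46.

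Of 11 tested integrin ligands, 2 were higher and 1 lower at 2 mM, and 3 were higher and 2 lower at 11 mM, which is 27.3% and 45.5% called beside 44.1% and 33.4% of all genes. Fn1, fibronectin, the ligand of α5β1 and α4β1, was at 1048, 848 and 1216 CPM in GFP cells and at 529, 559 and 528 with ChREBPβ at 2 mM. In 11 mM glucose it was at 980, 1265 and 998 in GFP cells and at 677, 598 and 543 in ChREBPβ cells. Its groups did not overlap between the viruses, and it fell by 0.95 and 0.83 (edgeR adjusted p = 2.03e-07 and 1.55e-06). Lamb3, the β3 chain of laminin-332, was at 66.9, 66.1 and 68.0 CPM in GFP cells and at 135, 145 and 143 with ChREBPβ at 2 mM, and rose by 1.08 at 2 mM and 0.87 at 11 mM (adjusted p = 2.11e-14 and 7.08e-13, edgeR). Nid2, nidogen 2 of the basement membrane, rose by 0.57 and 1.04.

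Of 14 tested cadherin partners and adherens junction genes, 2 were higher and 4 lower at 2 mM, and 3 were higher and 4 lower at 11 mM. The share called, 42.9%, was near the 44.1% of all genes at 2 mM, and it was 50% beside 33.4% at 11 mM. Plekha7, which binds p120-catenin at the zonula adherens, was at 31.9, 31.3 and 33.0 CPM in GFP cells and at 16.8, 14.6 and 15.2 with ChREBPβ at 2 mM, and fell by 1.05 and 0.80 (edgeR adjusted p = 7.2e-11 and 4.27e-09). Nectin2, an immunoglobulin-like adhesion molecule, fell by 0.58 and 0.37, and δ-catenin (Ctnnd2) by 0.43 and 0.36. Arvcf, a p120-family catenin, rose by 0.50 and 0.44. Of 6 tested desmosome genes, 1 was higher and 4 lower at 2 mM and 1 higher and 2 lower at 11 mM, where 44.1% and 33.4% of all genes were called. The plakophilin Pkp2 fell by 0.48 and 0.38, desmocollin 2 (Dsc2) by 0.40 and 0.32, and the scarce plakophilin Pkp1, at 0.300 CPM in GFP cells and 0.596 with ChREBPβ at 2 mM, rose by 1.00 and 0.80.

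Of 17 tested claudin partners and tight junction genes, 4 were higher and 5 lower at 2 mM, and 5 were higher and 4 lower at 11 mM. The share called was 52.9% at each level, beside 44.1% and 33.4% of all genes, with 23.5% higher and 29.4% lower at 2 mM beside 21.0% and 23.2%. Cingulin (Cgn), a cytoplasmic plaque protein, was at 18.3, 19.5 and 19.6 CPM in GFP cells and at 36.3, 38.0 and 36.7 with ChREBPβ at 2 mM, and rose by 0.95 and 0.69 (edgeR adjusted p = 1.39e-11 and 1.06e-09). The scaffolds Magi1 and Tjp3 rose by 0.67 and 0.56 and by 0.64 and 0.61, and Marveld2, tricellulin of the tricellular corners, fell by 0.56 and 0.40.

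Of 5 tested transcription factors known as repressors of cadherin and claudin genes, 1 was higher and 3 lower with ChREBPβ at each glucose level, where 44.1% and 33.4% of all genes were called. Snai1, best known for repressing E-cadherin, was at 0.184, 0.175 and 0.481 CPM in GFP cells and at 6.59, 8.15 and 8.34 with ChREBPβ at 2 mM. The GFP libraries at 11 mM held 0.398, 0.402 and 0.338 and the ChREBPβ libraries 9.36, 9.32 and 9.05. It rose by 4.78 and 4.60 (edgeR adjusted p = 2.67e-13 and 5.77e-14). Its relative Snai2 was at 3.05, 1.95 and 2.02 CPM in GFP cells and at 1.22, 1.12 and 1.00 with ChREBPβ at 2 mM, and fell by 1.07 and 0.71 (adjusted p = 0.000398 and 0.0106, edgeR). Twist1 fell by 0.35 and 0.41. In the same libraries the Cdh1 log2 fold change was -0.14 and 0.01.

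**Figure D4:**
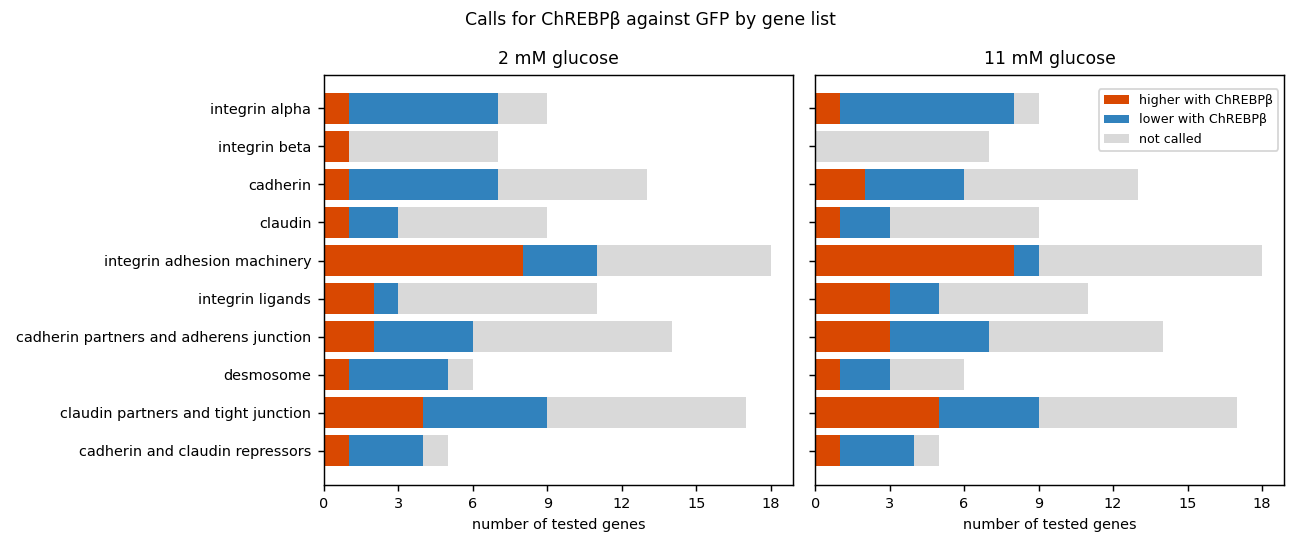
Number of tested genes (horizontal axis) in each of 10 lists that were called higher (orange), called lower (blue) or not called (grey) with ChREBPβ against GFP at 2 mM (left) and 11 mM glucose (right). At 2 mM the integrin α bar holds 6 lower and 1 higher call and the adhesion machinery bar 3 lower and 8 higher, where 23.2% of all genes were lower and 21.0% higher, and differences between lists were not tested.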

How the data were processed

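RNA of INS-1 cells was amplified and sequenced by the authors as 12 libraries. The deposited table holds raw counts per gene name, made by the authors on the Rnor_6.0 assembly, which the submitters' processing notes name beside edgeR. The aligner and counter are not given in the sources used here. The 1 row without a name held 0.0043% to 0.006% of counts per library and was left out, and 4 columns of the authors' group means were not used. All 39 members matched a RefSeq symbol.

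Counts were scaled by TMM factors (0.958 to 1.06) and tested with edgeR (version 4.0.16, R 4.3.3) by the quasi-likelihood method in 1 fit over the 4 groups of 3 libraries, on the 14669 genes kept by filterByExpr. The adjusted p-values are Benjamini-Hochberg values over these genes. The standard error is the log2 fold change divided by the root of F. The minimum of 1.2-fold follows the study's methods. On simulated counts for ChREBPβ against GFP at 2 mM, 175 of 199 changed genes were recovered with 5 false calls. The counts were drawn from the model that edgeR assumes, with 199 changed genes among the 14512 tested. In the data 44.1% of genes were called at 2 mM, so the simulation does not give the error rate of these calls. DESeq2 (version 1.42.0) and other settings were run as alternatives.

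The study calls the libraries independent experiments. Within a group they differed by more than sampling noise (chi-square per degree of freedom 3.13 to 17.5). The members and gene lists were chosen with earlier results of these data known. Values per library are given for members called at 2-fold or more with a mean of at least 1 CPM, and for Itgb1, Itgav, Itga6, Cdh1 and Cdh2. Itga9, Cdh3 and Itgb2 were given in counts after their values were seen. Of each further list, at most 4 genes called in both ChREBPβ comparisons are given. Levels are not per length and are not compared between genes.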

Additional observations from a re-analysis of the deposited data

Results flagged for a closer look

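Among the members and the genes of the other lists, 1 gene had an effect of ChREBPβ that differed between glucose levels in edgeR's interaction test. It was 1 of 11 tested integrin ligands (9.09%), with 0 of 38 members called, beside 6.31% of all genes. The gene averaged 0.926 CPM over the 12 libraries, and how its call fares under the alternatives is not given here. Fbn1, fibrillin 1 of the microfibrils and 1 of the integrin ligands, had an interaction of -1.265 ± 0.385 (SE) on the log2 scale (adjusted p = 0.0487), with a log2 fold change of 0.60 at 2 mM and -0.66 at 11 mM. It was at 0.625, 0.700 and 0.865 CPM in GFP cells and at 1.0, 1.5 and 0.806 in ChREBPβ cells at 2 mM, and the 11 mM libraries read 1.15, 1.15 and 1.14 and then 0.597, 0.754 and 0.823. The groups overlapped at 2 mM and did not at 11 mM. The difference of ChREBPβ from GFP passed at 11 mM, where Fbn1 fell (adjusted p = 0.0409, edgeR), and did not pass at 2 mM, where its log2 fold change was above 0 (0.0769).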

How the results depend on the processing

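Of the members called, 17 of 18 at 2 mM, 14 of 17 at 11 mM and 5 of 8 for glucose in GFP cells stayed called, at the same 1.2-fold minimum, under every alternative of scaling, test, filter, samples or depth in which they were tested, and none reversed. With a minimum of 2-fold, 11, 9 and 1 members were called in these comparisons, and 1456, 992, 294, 28 and 108 of all genes for ChREBPβ at 2 mM, at 11 mM, glucose in GFP cells, glucose in ChREBPβ cells and the interaction, since the criterion itself is stricter. With no minimum fold, 5030 genes were called for glucose in GFP cells and 1100 in ChREBPβ cells, with 2 members in the latter. For glucose in ChREBPβ cells the members called were 1 with DESeq2, 2 with library totals, 2 with the likelihood ratio test, 1 with no filter and 1 with only the groups compared, and 0 to 1 when a library was left out. The interaction gave 1 member (Cdh11) with counts thinned to the smallest library and 0 to 1 (Cldn15, without GFP 2 mM c or GFP 11 mM b) when a library was left out; the cause was not tested. Only the groups compared was not run for the interaction, which needs all 4 groups. With thinning, 18, 14 and 8 members were called.

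With the library letter as a replicate block, 18, 17, 8, 0 and 0 members and 6449, 4861, 2938, 547 and 912 of all genes were called. The letters did not pair the samples: the correlation of same-letter deviations from the group means was -0.114 to 0.0644, over 0.1 in 0 of 18 pairs, and 6 of 12 libraries correlated best with their own letter. Depth limits the members under 1 CPM.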
